A study of Mus musculus with 4 samples.

Results

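Translation initiation and elongation factors are the proteins that load the ribosome onto an mRNA at its start codon and then feed it with aminoacyl-tRNA. Their transcripts were examined in bulk RNA-seq of CT26, a mouse colon carcinoma line. Members were taken by symbol, as every gene whose name begins with Eif1 to Eif6 or with Eef1 or Eef2. The eIF2 kinases (Eif2ak), the eIF4E-binding proteins (Eif4ebp), the eEF1A lysine methyltransferases (Eef1akmt) and pseudogenes were left out. This gave 52 genes of the 21677 symbols in the table, 44 with an initiation factor symbol and 8 with an elongation factor symbol. Of these, 48 reached a mean of 1 FPKM (fragments per kilobase of transcript, scaled to library size) in at least 1 group and were tested, and each of the 48 did so in both groups.

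The Control group had 2 libraries, S17 and S19, and the iRhom1 KO group also had 2, S18 and S20. iRhom1 is the inactive rhomboid protease encoded by Rhbdf1. The KO line carries a puromycin-resistant lentiviral CRISPR vector against Rhbdf1 and was selected from a single clone, so it is 1 clone. The sample titles name no treatment in either group. The study's legend for the sequencing panel describes the reference as WT cells, while the labels say only Control, and a separate line with an empty CRISPR vector was also made. A clonal difference and the loss of iRhom1 cannot be told apart. The study presents the sequencing as representative of independent experiments, but which library belongs to which experiment or culture is not given, so the p-values below measure only the spread between libraries. In bulk RNA a change in the number of expressing cells and a change in RNA per cell cannot be told apart.

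Initiation begins when eIF2 brings the initiator tRNA to the small ribosomal subunit, to which eIF1, eIF1A and the large eIF3 complex are bound. The eIF4F complex (the cap-binding protein eIF4E, the scaffold eIF4G and the helicase eIF4A) recruits the mRNA, eIF5 and eIF5B complete the joining of the subunits, and eIF2B recharges eIF2 with GTP. In elongation, eEF1A delivers aminoacyl-tRNA and eEF2 moves the ribosome along the mRNA, and many of these transcripts belong to the 5' TOP class, whose translation is set by mTOR.

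The FPKM of Rhbdf1 were 0.538 and 0.890 in Control and 0.0940 and 0.0584 in iRhom1 KO. These equal the values listed for Apobec2 in every library but S18, where Apobec2 has 0.194, so they cannot serve as a check of the knockout. The leukocyte marker Ptprc and the endothelial marker Pecam1 lay at or under 0.0063 FPKM in all 4 libraries. Of the carcinoma markers only Krt8 and Krt18 have values here. Krt8 was at 0.0278 and 0 FPKM in Control and at 6.80 and 7.03 in iRhom1 KO, and Krt18 was at 8.58 and 9.39 against 17.4 and 18.3. The fibroblast markers Col1a1, Col1a2, Pdgfra and Dcn summed to 39.0 to 42.5 FPKM in Control and 52.4 to 57.6 in iRhom1 KO. Most of this sum was Col1a2, at 36.3 and 33.2 against 44.7 and 49.6. Col1a1 and Dcn were also higher in iRhom1 KO, whereas Pdgfra was lower, at 1.05 and 0.916 against 0.761 and 0.723. The part of the markers in the results was not tested.

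Since the results turn on genes that moved in opposite directions, the sequences around their transcription starts are shown first. They are RefSeq promoter windows of build GRCm38.p6, which run from 250 bases before to 50 bases after a start, and matched 42 of the 52 members. The first set gives 50 bases before to 20 bases after the start of 2 members that were higher (Eef1a1 and Eif3f) and 2 that were lower (Eif3l and Eif2b2) in iRhom1 KO. Capitals mark the longest run of at least 8 C or T on the transcribed gene's own strand near the start. A 5' TOP transcript begins with a tract of this kind, but a marked run need not lie at the start itself. That of Eif2b2 has its first base at position 6 of the transcript.
Eef1a1 (chr9:78481705-78481774, minus strand): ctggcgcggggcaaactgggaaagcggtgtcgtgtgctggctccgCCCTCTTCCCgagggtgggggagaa
Eif3f (chr7:108934365-108934434, plus strand): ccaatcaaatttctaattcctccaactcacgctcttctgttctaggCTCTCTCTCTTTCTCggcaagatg
Eif3l (chr15:79075173-79075242, plus strand): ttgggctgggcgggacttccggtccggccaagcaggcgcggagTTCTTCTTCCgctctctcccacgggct
Eif2b2 (chr12:85219431-85219500, plus strand): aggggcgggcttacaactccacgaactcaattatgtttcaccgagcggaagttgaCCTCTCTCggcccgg
Such a run, lying at least in part within 20 bases before to 30 bases after a start, was present for 13 of the 42 members, in 26.8% of their 56 windows and in 22.0% of the 13759 windows of genes in the table. It occurred in genes of both directions. Of the 12 tested members with a run, 3 were higher and 2 lower in iRhom1 KO, and of the 27 without one 3 were higher and 6 lower. Among all 10271 genes tested, 10.7% were higher and 21.9% lower.

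The second set centres on the letters CACGTG, an E-box, which read the same on both strands and are in capitals. The 4 genes were picked by their calls in these data: Eif4h, Eef2 and Eif1b were higher in iRhom1 KO, while Eif4g1 was lower. Their split is thus a result of the choice and says nothing about the E-box.
Eif4h (chr5:134639468-134639537, minus strand): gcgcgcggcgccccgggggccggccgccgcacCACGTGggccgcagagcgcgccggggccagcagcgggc
Eef2 (chr10:81176556-81176625, plus strand): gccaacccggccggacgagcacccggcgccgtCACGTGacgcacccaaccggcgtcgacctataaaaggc
Eif1b (chr9:120492550-120492619, plus strand): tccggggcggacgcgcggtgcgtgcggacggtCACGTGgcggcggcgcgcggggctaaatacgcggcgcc
Eif4g1 (chr16:20672641-20672710, plus strand): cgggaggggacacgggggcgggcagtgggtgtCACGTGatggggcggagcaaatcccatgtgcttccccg
CACGTG was found for 12 of the 42 members, in 14 of their 56 windows and 1256 of the 13759 windows in all (9.13%). Of the 11 tested members with it 4 were higher and 1 was lower in iRhom1 KO, and of the 28 without it 2 were higher and 7 lower. CCGGAA, searched on both strands, was found for 19 of the 42 members, in 41.1% of their windows and 24.1% of all windows. Of the 18 tested members with CCGGAA 3 were higher and 4 lower, and of the 21 without it likewise 3 and 4. These counts stand beside 10.7% higher and 21.9% lower among all genes tested. They are descriptions without a test, and a match is not evidence of a bound site.

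Of the 48 tested members 6 rose and 9 fell in iRhom1 KO cells at a limma adjusted p under 0.05, and 33 did not pass. Among all 10271 genes tested, 10.7% were higher and 21.9% were lower, so the translation factors were called about as often as other genes. The median log2 fold change (iRhom1 KO minus Control) was -0.08 over the members and -0.10 over all genes. The 6 higher members were Eif4h, Eef1a1, Eef2, Eif1b, Eef1b2 and Eif3f. The 9 lower ones were Eif3b, Eif3l, Eif2b1, Eif4g1, Eif4b, Eef1e1, Eif2b2, Eif3e and Eif3d. The scale between libraries moved this split. With trimmed mean scaling 8 members were higher and 6 lower (all genes 16.1% and 16.4%), and with quantile normalization 7 and 5 (all genes 15.6% and 15.1%). The higher calls thus rose from 40% of the members called to 57.1% and 58.3%, and from 32.7% of all genes called to 49.5% and 50.8%, while the median log2 fold change of all genes moved to -0.0088 and -0.0028.

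**Figure D1:**
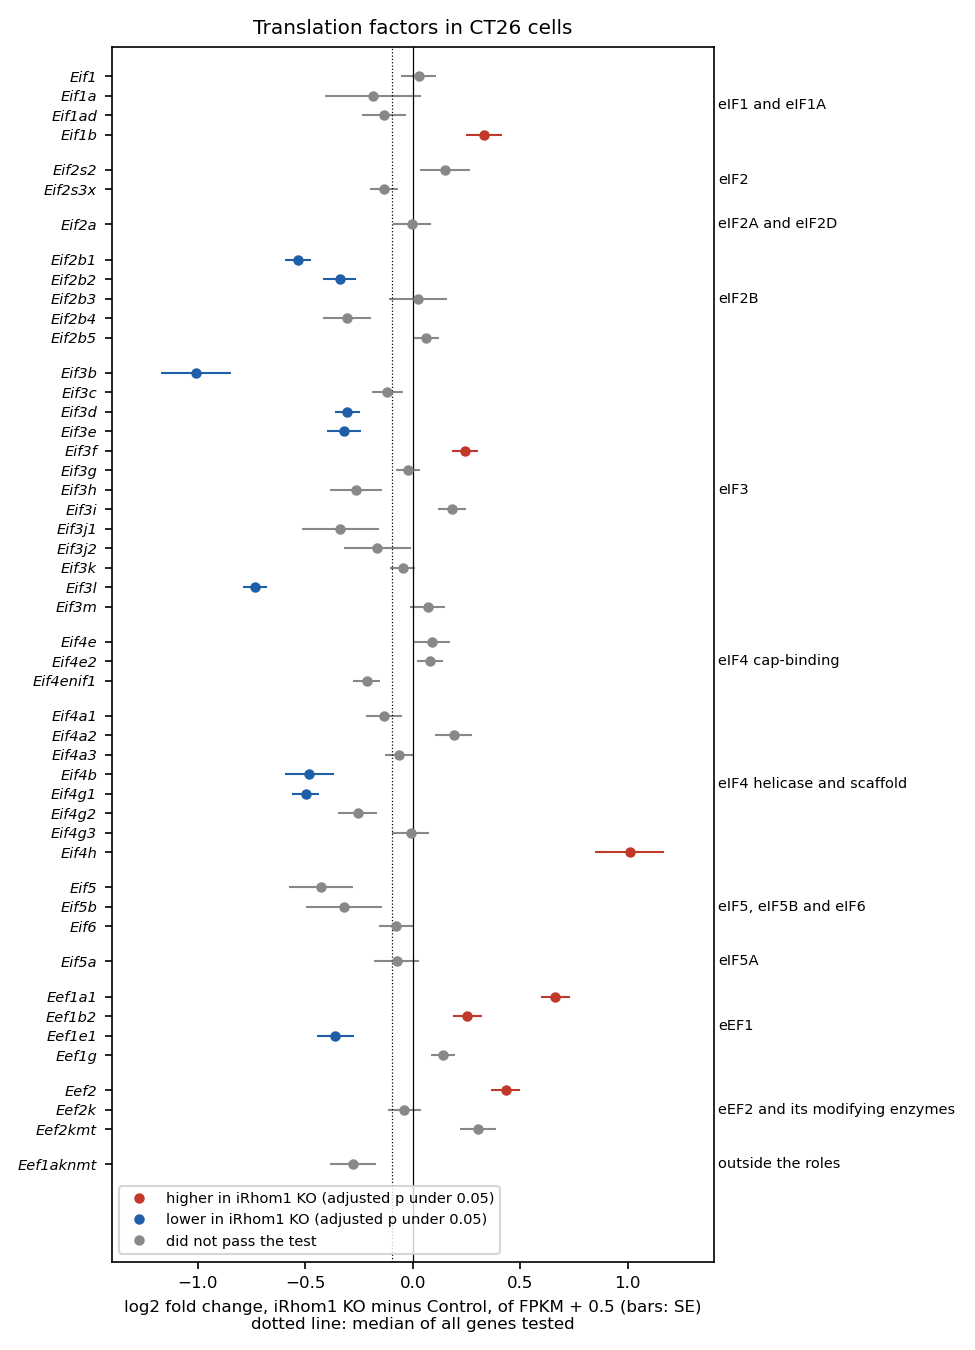
Log2 fold change of FPKM + 0.5 (iRhom1 KO minus Control, x axis) of each of the 48 tested translation factors, grouped by role, with limma's standard error as a bar and the median of all genes as a dotted line. Eef1a1, Eef2 and Eif4h lie to the right of 0, whereas Eif3b, Eif3l, Eif2b1 and Eif4g1 lie to its left.

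The 3 members of highest FPKM were the elongation factors Eef1a1, Eef2 and Eef1g, and the first 2 of these were higher in iRhom1 KO. Of the 8 members with elongation factor symbols 3 were higher and 1 was lower (median log2 fold change 0.20), whereas of the 40 tested initiation factor symbols 3 were higher and 8 lower (median -0.13). Among all genes tested 10.7% were higher and 21.9% lower, and the difference between the 2 classes was not tested. Most of the lower initiation factors lie on chromosomes with a low median over all genes, and their counts by chromosome are given further below. Eef1a1 (ENSMUSG00000037742, chr9:78478449-78489151 in GRCm38, minus strand), which delivers aminoacyl-tRNA to the ribosome, was at 4471 and 4471 FPKM in Control and at 7109 and 7055 in iRhom1 KO. The gap between the groups was far wider than that between libraries of a group. Its log2 fold change was 0.66 ± 0.07 (SE), or 1.58-fold, with an adjusted p of 0.00798. This single transcript made up 58.8% and 58.9% of the summed FPKM of the 52 members in Control and 68.5% and 69.0% in iRhom1 KO. The members together made up 1.86% and 1.76% of the summed FPKM of the table in Control and 2.43% and 2.29% in iRhom1 KO. Eef1a1 alone made up 1.10% and 1.03% against 1.66% and 1.58%, and the other members together 0.769% and 0.722% against 0.765% and 0.710%, so that the gap lay in Eef1a1.

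Eef2 (chr10:81176631-81182498, plus strand), the translocase, was at 571 and 580.2 FPKM in Control and 752 and 802 in iRhom1 KO, without overlap. It was 1.35-fold higher (log2 fold change 0.43 ± 0.07, adjusted p = 0.0159), and its adjusted p without S20 was 0.0508. Eef1b2, a guanine nucleotide exchange subunit of eEF1, was at 158 and 157 FPKM against 195 and 181. Its log2 fold change of 0.25 ± 0.07 lay close to the threshold (adjusted p = 0.0491). The call of Eef1b2 was lost with quantile normalization (adjusted p = 0.114) and when any one library was left out (adjusted p of 0.0560 to 0.170). Eef1g, another eEF1 subunit, was at 284 and 289.9 FPKM against 315 and 318, with no overlap between the groups but an adjusted p of 0.129 (log2 fold change 0.14 ± 0.06).

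The lower member with an elongation factor symbol, Eef1e1, encodes a protein of the multisynthetase complex that holds aminoacyl-tRNA synthetases together. It was at 24.1 and 21.9 FPKM in Control and 18.7 and 16.9 in iRhom1 KO (log2 fold change -0.36 ± 0.09, adjusted p = 0.0423). All 4 leave-one-library-out fits (adjusted p of 0.0620 to 0.159) and both scalings lost that call. Eef2k, the kinase that inhibits eEF2, was at 2.22 and 2.31 against 2.26 and 2.12 FPKM, with overlapping groups. Eef2kmt, which methylates eEF2, was at 5.07 and 5.70 against 6.67 and 6.83 FPKM (adjusted p = 0.0546) and passed with either scaling. Eef1aknmt, a methyltransferase of eEF1A, was at 1.51 and 1.83 against 1.28 and 1.29 FPKM (adjusted p = 0.111).

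**Figure D2:**
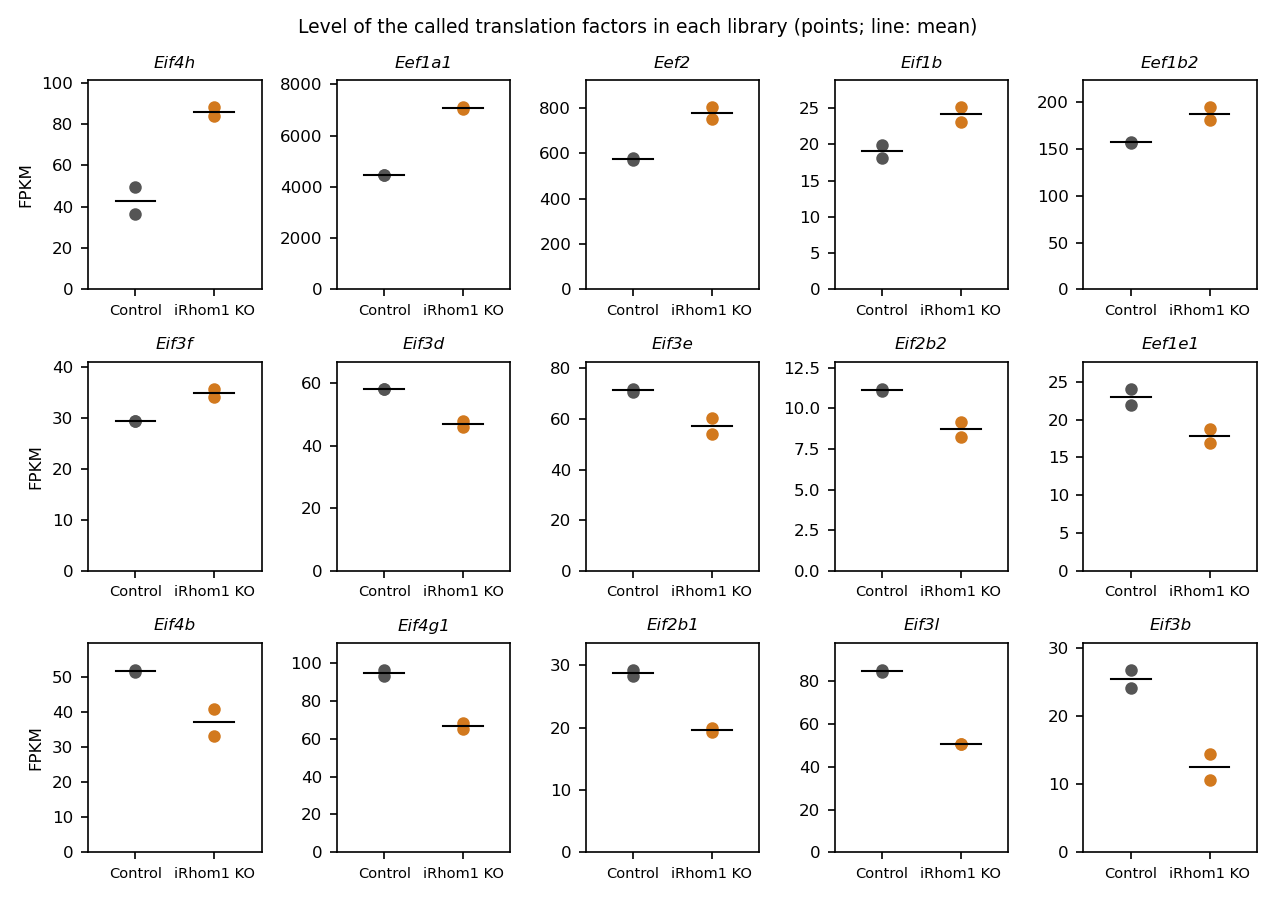
FPKM (y axis, from 0) of the 15 called translation factors in each library, 2 points for Control and 2 for iRhom1 KO, with the mean as a line, ordered from the highest to the lowest fold change. Points of the groups do not overlap in any panel, but the panels were chosen by the test on these same values, so this adds no support. Relative to its mean, the spread within a group is wide for Eif4h in Control and for Eif3b and Eif4b in iRhom1 KO.

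The eIF4 group, which brings the mRNA to the ribosome, held changes in both directions. Eif4h (ENSMUSG00000040731, chr5:134619721-134639490, minus strand), an RNA-binding cofactor of the helicase eIF4A, was at 36.4 and 49.6 FPKM in Control and 83.9 and 88.2 in iRhom1 KO. Both KO libraries were above both Control libraries, and the change was the largest rise of any member (log2 fold change 1.01 ± 0.16, adjusted p = 0.0169). The call was lost when either iRhom1 KO library was left out, with an adjusted p of 0.0737 without S18 and 0.0892 without S20. Eif4b, a related cofactor of eIF4A, moved the other way, at 51.4 and 51.8 FPKM against 40.8 and 33.2 (log2 fold change -0.48 ± 0.11, adjusted p = 0.0390). It was called without S18 but not without S17, S19 or S20 (adjusted p of 0.0671, 0.0694 and 0.0511).

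Eif4g1 (chr16:20668313-20692884, plus strand), the main scaffold of eIF4F, was at 96.0 and 93.2 FPKM in Control and 65.2 and 68.4 in iRhom1 KO. It was lower without overlap (log2 fold change -0.50 ± 0.06, adjusted p = 0.0103) and stayed called in all 11 alternative fits. Its paralog Eif4g3 was at 1.17 and 1.07 against 1.08 and 1.13 FPKM, and so made up 1.21% and 1.13% of the pair's FPKM in Control and 1.63% in both KO libraries. Eif4g2, a related scaffold that lacks the eIF4E-binding region, was at 61.6 and 62.1 against 55.7 and 48.1 FPKM (adjusted p = 0.0962, and 0.0428 without S18).

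The helicases themselves did not pass. Eif4a1 was at 131 and 136 FPKM in Control and 129 and 115 in iRhom1 KO (adjusted p = 0.270), and Eif4a2 was at 21.5 and 23.4 against 27.1 and 24.3 (adjusted p = 0.160). Eif4a2 made up 14.1% and 14.6% of the summed FPKM of both helicases in Control and 17.3% and 17.5% in iRhom1 KO, and it was called higher with either scaling. The pseudogene Eif4a-ps4 was listed at 176 to 216 FPKM, above Eif4a1 itself, so the division of reads between these copies is uncertain. Eif4a3, the helicase of the exon junction complex, was at 69.9 and 71.2 against 65.3 and 69.8 FPKM. The cap-binding members Eif4e and Eif4e2 and the eIF4E transporter Eif4enif1 did not pass either. The cap-binding protein Eif4e was at 31.1 and 29.5 FPKM against 34.2 and 30.4, its relative Eif4e2 at 11.2 and 11.3 against 11.9 and 11.96, and the eIF4E transporter Eif4enif1 at 6.33 and 6.36 against 5.43 and 5.38 (adjusted p = 0.0658).

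Of the 13 tested subunits of eIF3, the scaffold that links the small ribosomal subunit to the mRNA, 4 were lower and 1 was higher in iRhom1 KO. The shares among all genes tested were 21.9% lower and 10.7% higher. Eif3b (chr5:140419328-140443360, plus strand), a core subunit, was at 24.2 and 26.8 FPKM in Control and 14.5 and 10.6 in iRhom1 KO. Both KO libraries lay well below Control although they differed from each other (log2 fold change -1.01 ± 0.16, adjusted p = 0.0176). Eif3l (chr15:79075179-79094405, plus strand), a peripheral subunit, was at 85.2 and 84.3 FPKM against 50.9 and 50.7. Libraries of the same group lay close together (log2 fold change -0.73 ± 0.06, adjusted p = 0.00547). Both calls were kept in all 11 alternative fits.

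Eif3d, a subunit that can itself bind the cap, was at 58.2 and 58.1 FPKM in Control and 46.1 and 47.8 in iRhom1 KO (log2 fold change -0.31 ± 0.06, adjusted p = 0.0248). Eif3e was at 71.9 and 70.6 against 60.4 and 53.8 (log2 fold change -0.32 ± 0.08, adjusted p = 0.0442). With trimmed mean scaling or quantile normalization neither passed. Eif3d lost its call without any one library (adjusted p of 0.0513 to 0.117) and Eif3e without S17, S19 or S20 (0.138, 0.112 and 0.0765). Eif3f was the one higher subunit, at 29.3 and 29.5 FPKM against 35.7 and 34.1 (log2 fold change 0.24 ± 0.06, adjusted p = 0.0447), and was no longer called when any one library was left out (adjusted p of 0.0625 to 0.206).

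The other 8 subunits did not pass. Those of highest level were Eif3h, at 153 and 168 FPKM in Control against 147 and 120.3 in iRhom1 KO, and Eif3c, at 152 and 155 against 148 and 135. Eif3i was at 50.8 and 50.2 against 55.4 and 59.3 FPKM (adjusted p = 0.0992). Of the remaining ones, Eif3g was at 40.9 and 40.8 FPKM against 40.0 and 40.5, Eif3k at 69.2 and 69.7 against 66.5 and 68.0, and Eif3m at 87.5 and 77.4 against 87.7 and 85.0. The near-identical copies Eif3j1, at 9.79 and 9.22 against 8.87 and 6.19, and Eif3j2, at 15.8 and 15.4 against 16.1 and 11.9, may share reads, so their separate values are uncertain. Both were called lower without S18, with log2 fold changes of -0.58 and -0.38 (adjusted p of 0.0408 and 0.0452). Eif3j2 held 61.7% and 62.6% of the pair's FPKM in Control and 64.5% and 65.8% in iRhom1 KO.

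The lower eIF3 subunits all lie on chromosomes 5 and 15. Over all tested genes, the median log2 fold change was -0.23 on chromosome 5 (670 genes), -0.34 on chromosome 13 (453 genes), -0.32 on chromosome 15 (410 genes) and -0.37 on chromosome 17 (510 genes), and between -0.10 and -0.03 on each of the other autosomes and X. These 4 chromosomes were chosen after their medians were known. The 5 eIF3 subunits on chromosomes 5 and 15 (Eif3b, Eif3d, Eif3e, Eif3h and Eif3l) had a median of -0.32, with 4 lower. The 8 on other chromosomes had a median of -0.03, with 1 higher and none lower.

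The same held for the members as a whole. On chromosomes 5, 13, 15 and 17, 7 of 10 tested members were lower and 1 was higher, their median log2 fold change being -0.34. Of all 2043 tested genes there, 41.3% were lower and 5.92% higher, with a median of -0.31. On the other chromosomes 2 of 38 members were lower, Eif4g1 and Eif2b2, and 5 were higher, with a median of -0.03. Among all 8204 genes there, 17.1% were lower and 11.9% higher, with a median of -0.05. Of the 31 initiation factor symbols tested on these other chromosomes, 2 were higher and 2 lower, with a median of -0.06. The part of the chromosome in the contrast between initiation and elongation factors was not tested. Set against the median of their own chromosome, Eif3d and Eif3e had log2 values of 0.02 and 0.00 and Eef1e1 of -0.02. Eif4b was at -0.16, Eif3b at -0.78, Eif3l at -0.41 and Eif2b1 at -0.31, and Eif4h was at 1.24. The part of the chromosome in these differences was not tested further.

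**Figure D3:**
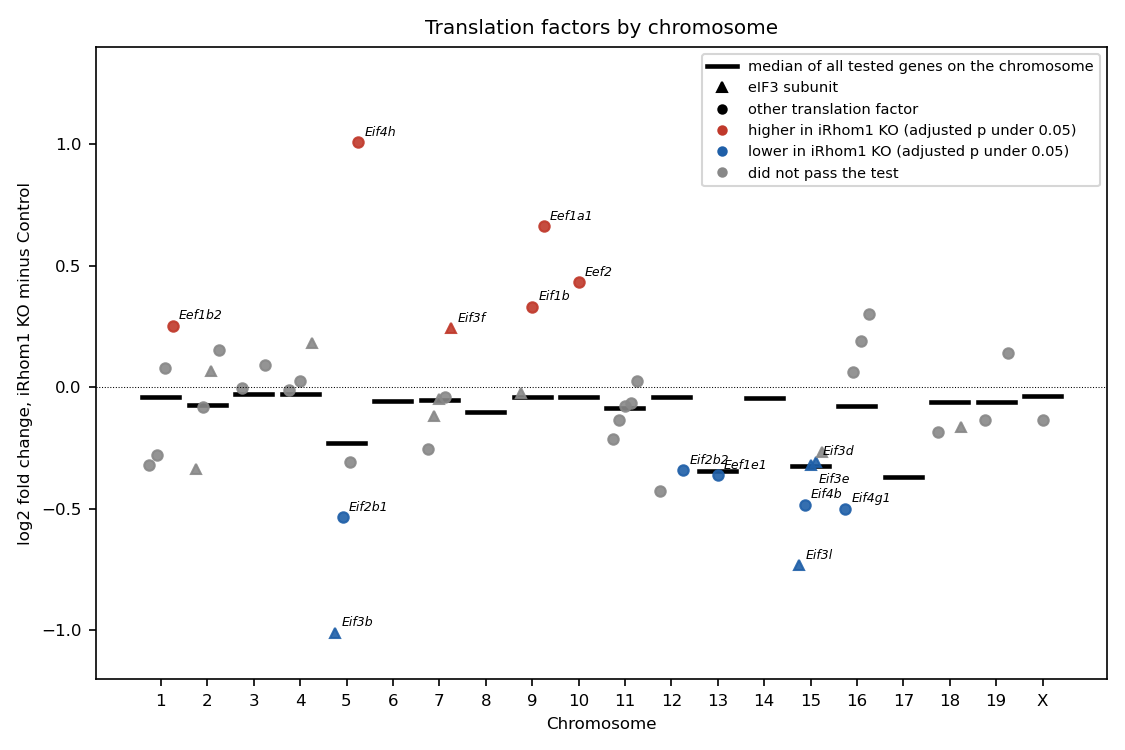
Log2 fold change (y axis) of each tested translation factor by chromosome (x axis), with eIF3 subunits as triangles, other members as circles, and a black bar for the median of all tested genes on the chromosome. Eif3d, Eif3e and Eef1e1 sit on the bar of their chromosome, whereas Eif3b, Eif3l and Eif4h lie away from it.

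The exchange factor eIF2B had 2 of its 5 subunits lower and none higher (median log2 fold change -0.31), against 21.9% and 10.7% of all genes tested. Eif2b1 (chr5:124570213-124579131, minus strand), the alpha subunit, was at 29.2 and 28.3 FPKM in Control and 19.4 and 20.02 in iRhom1 KO. This separation was wide against the spread within groups (log2 fold change -0.53 ± 0.06, adjusted p = 0.00951), and the call held in all 11 alternative fits. Eif2b2, the beta subunit, was at 11.1 and 11.2 FPKM against 9.16 and 8.24 (log2 fold change -0.34 ± 0.08, adjusted p = 0.0364), and lost its call with quantile normalization and without S17, S19 or S20 (adjusted p of 0.120, 0.130 and 0.0729).

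The delta subunit Eif2b4 was at 5.38 and 6.15 FPKM against 4.92 and 4.21 (adjusted p = 0.101). Of the subunits that carry the exchange activity, Eif2b3 was at 6.51 and 6.01 against 7.23 and 5.61 FPKM, and Eif2b5 at 49.6 and 47.2 against 50.2 and 50.9. Their log2 fold changes were 0.02 ± 0.14 and 0.06 ± 0.06. The substrate eIF2 did not pass in either subunit tested. Eif2s2, the beta subunit, was at 45.9 and 44.4 FPKM against 55.7 and 45.2, and Eif2s3x, the gamma subunit, at 87.8 and 88.6 against 83.2 and 77.6 (adjusted p = 0.180). Eif2a, which is a separate protein and no subunit of eIF2, was at 18.8 and 18.6 FPKM against 19.96 and 17.4.

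Among the factors that find the start codon, Eif1b was higher and its paralog Eif1 was not. Eif1b was at 18.2 and 19.98 FPKM in Control and 25.1 and 23.2 in iRhom1 KO (log2 fold change 0.33 ± 0.08, adjusted p = 0.0439). Eif1 was at 14.6 and 16.4 against 15.6 and 15.96, with overlapping groups, so that Eif1b made up 55.5% and 55.0% of the pair's FPKM in Control and 61.8% and 59.2% in iRhom1 KO. The call of Eif1b was lost when any one library was left out (adjusted p of 0.0707 to 0.182). Eif1a, which works with eIF1, differed most within a group, at 39.3 and 25.1 FPKM in Control and 28.2 and 27.0 in iRhom1 KO, and was called lower only in the fit without S19 (adjusted p = 0.0324). Eif1ad, a protein with an eIF1A-type domain, was at 22.3 and 23.6 against 22.7 and 19.2.

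Neither Eif5 and Eif5b, which act late in initiation, nor the separate factors Eif6 and Eif5a passed the test with all 4 libraries. Eif5, which triggers GTP hydrolysis by eIF2, was at 58.1 and 46.2 FPKM in Control and 41.8 and 35.3 in iRhom1 KO (log2 fold change -0.43 ± 0.15, adjusted p = 0.0915, and -0.59 with 0.0316 without S19). Eif5b, which joins the subunits, was at 5.29 and 5.30 against 5.00 and 3.42 (adjusted p = 0.228, and 0.0387 without S18). Eif6, which keeps the large subunit free, overlapped between groups, at 56.1 and 59.0 against 51.6 and 57.4. Eif5a, the hypusine-containing factor, was at 257 and 228 against 246 and 215 FPKM, also with overlap.

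The 4 members below the tested level were Eif5a2, Eif4a3l1, Eif4a3l2 and Eif2c5. Eif5a2, the paralog of Eif5a, was listed at 0.0093 and 0 FPKM in Control and at 0.335 and 0.245 in iRhom1 KO, which is 0.136% and 0.114% of the pair's FPKM in the KO libraries. No fold is given against a library at 0. When no filter on low values was applied it was called higher (adjusted p = 0.0215). Eif4a3l1 lay between 0.0575 and 0.0848 FPKM and Eif4a3l2 between 0.146 and 0.362. Eif2c5, a noncoding locus in the annotation that has only its symbol in common with these factors, lay between 0.0264 and 0.125. Eif1ax, Eif2s1, Eif2s3y, Eif2d, Eif3a, Eif4e3, Eif4e1b, Eef1a2 and Eef1d were not analysed here.

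Other genes of translation were counted by list, with the same fit. Of all 10271 genes tested, 10.7% were higher and 21.9% lower. With trimmed mean scaling these shares were 16.1% and 16.4%, and with quantile normalization 15.6% and 15.1%. The lists were not tested against these shares. Among 10 helpers of initiation and poly(A) binding, 6 were lower and none higher, their median log2 fold change being -0.47. Ddx3x, a helicase, was at 108 and 92.8 FPKM against 64.9 and 58.2, and the poly(A)-binding Pabpc4 at 72.5 and 70.8 against 45.3 and 43.5. Abcf1, an ATP-binding partner of eIF2, was at 36.2 and 37.8 against 23.4 and 22.1. The groups were apart in each of these genes, with log2 fold changes of -0.70, -0.68 and -0.69 and adjusted p of 0.0153, 0.00619 and 0.00720. Of the 6 lower helpers, Abcf1, Dhx29, Pabpc1 and Paip1 lie on chromosomes 13, 15 and 17. Of all tested genes on chromosomes 5, 13, 15 and 17, 41.3% were lower. Against the median of their chromosome, Abcf1 was at -0.32, Dhx29 at -0.18, Pabpc1 at -0.0489 and Paip1 at -0.32. Pabpc4 and Ddx3x, on chromosomes 4 and X, were each at -0.66. The part of the chromosome was not tested. With trimmed mean scaling or quantile normalization Pabpc1 lost its call and Paip2 was called higher, giving 1 higher and 5 lower.

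Of 15 kinases, phosphatase subunits and binding proteins that set initiation, 1 was higher and 2 were lower (all genes 10.7% and 21.9%). Ppp1r15a, which directs the dephosphorylation of eIF2, was at 11.1 and 10.7 FPKM against 16.7 and 15.2 (log2 fold change 0.53, adjusted p = 0.0147). Impact, an inhibitor of the eIF2 kinase Gcn2, was at 27.9 and 25.4 against 13.9 and 12.8 (log2 fold change -0.97, adjusted p = 0.00587). The heme-regulated eIF2 kinase Eif2ak1 was at 6.45 and 6.77 against 4.89 and 4.32 (log2 fold change -0.48, adjusted p = 0.0223). Eif2ak1 lies on chromosome 5 and was at -0.25 against the median of that chromosome. Of 10 enzymes that modify elongation factors, Dph7 was higher (log2 fold change 0.32), and Dph2 (-0.50) and Dph3 (-0.40), which act with it in making the diphthamide of eEF2, were lower, as was the eEF1A methyltransferase Eef1akmt1 (-0.61). Under either scaling Dph2 and Dph3 lost their calls and Dph5 was called higher, giving 2 higher and 1 lower, while the 15 genes of the other list kept their split of 1 and 2.

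Of 10 genes of release, recycling and ribosome rescue, Gtpbp2 was higher (log2 fold change 0.58), and Zfp598 (-0.43), Gtpbp1 (-0.52) and Ltn1 (-0.36) were lower. The shares of all genes were again 10.7% higher and 21.9% lower, for this list and those that follow. Of 10 mitochondrial translation factors, Gfm2 (-0.52), Mrrf (-0.33) and Gfm1 (-0.25) were lower and none was higher. Either scaling left Gfm2 lower and called Tsfm higher. Of 22 cytosolic aminoacyl-tRNA synthetases and their scaffold proteins, 2 were higher, Eprs (0.31) and Gars (0.28), and 4 were lower, with Aimp2 (-0.53), Vars (-0.36) and Iars (-0.27) those of smallest p. Here the split turned round, to 6 higher and 1 lower, Aimp2, under either scaling. Zfp598, Gtpbp1, Gfm2, Aimp2, Vars and Iars lie on chromosomes 5, 13, 15 and 17, as does the higher gene Gtpbp2. Against the median of their chromosome, Vars was at 0.0073, Iars at 0.0702, Zfp598 at -0.0623, Gfm2 at -0.17, Gtpbp1 at -0.20 and Aimp2 at -0.30. Gtpbp2 was at 0.95. The part of the chromosome was not tested. Of the 7 tested factors known as 5' TOP mRNAs, 4 were higher, Eef1a1, Eef1b2, Eef2 and Eif3f, and 1 was lower, Eif3e, while Eef1g and Eif3h did not pass. With either scaling none of these was lower, and 4 (trimmed mean) or 3 (quantile) were higher. These 7 are members themselves and give no support beyond the values above. Outside the members, Ppp1r15a, Impact, Eef1akmt1, Pabpc4, Paip1, Dhx29, Abcf1 and Aimp2 stayed called whichever library was left out, and the other called genes of the lists lost the call without at least 1 library (adjusted p up to 0.235).

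**Figure D4:**
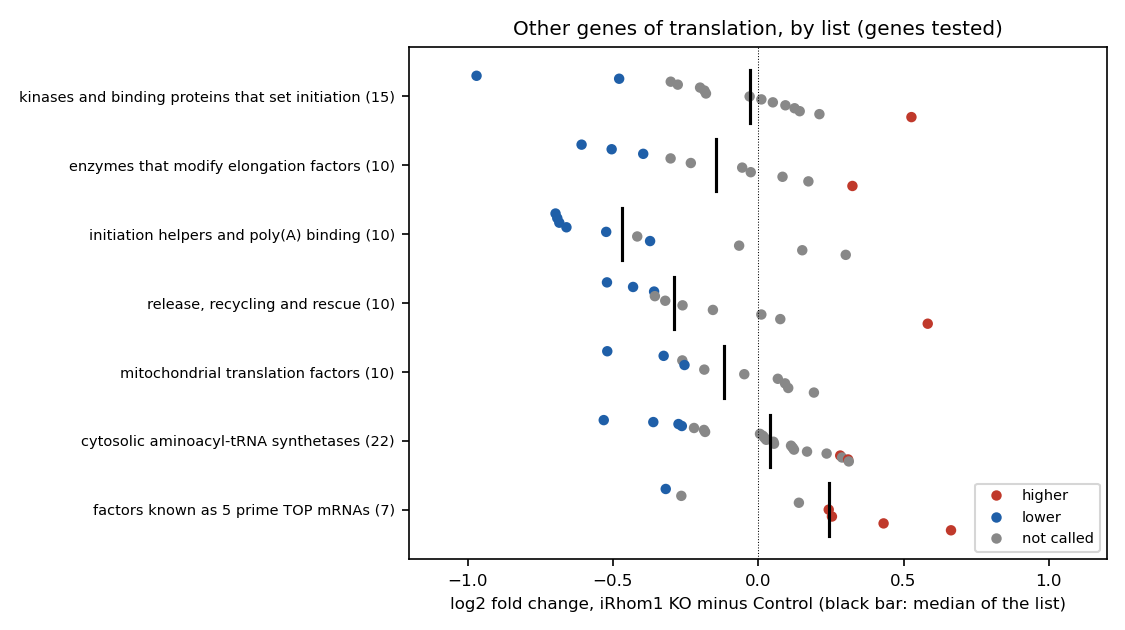
Log2 fold change (x axis) of each tested gene in 7 lists of translation genes (rows, with the number tested), coloured by call, with the list's median as a black bar. The median is lowest for initiation helpers, at -0.47, and highest for 5' TOP factors, at 0.24.

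Library S20 was lower than S18 in 31 of the 48 tested members (64.6%) and in 65.2% of all tested genes, with a median log2 difference of -0.09 and -0.06. S19 was lower than S17 in 22 members (45.8%) and in 50.8% of all tested genes. Members whose KO libraries stood apart, such as Eif3b, Eif4b and Eif5b, had their lower value in S20. Trimmed mean factors were 1.04 for both Control libraries, 0.993 for S18 and 0.940 for S20.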

How the data were processed

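Gene-level FPKM of 4 libraries of bulk RNA were used as the authors deposited them, made with HISAT2 alignment and StringTie quantification against GRCm38 per the labels (versions not given in the sources used here). The deposited ratio of group means and its log2 are the authors' own comparison and were not used. Rows with a date number as symbol (19) were dropped and rows of a shared symbol summed. Genes whose mean reached 1 FPKM in either group were fitted as log2(FPKM + 0.5) with limma 3.58.1 in R 4.3.3 (trend) and Benjamini-Hochberg adjustment over all 10271, at 0.05. The pseudocount understates the change of low genes. An exact permutation test of 2 against 2 libraries cannot go below 0.333. The fit was also run on data simulated with independent normal noise. Those data hold no shift by chromosome or library scale, so the run cannot check the fit for such shifts.

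Total counts are not in the table. In genes with 1 transcript, low FPKM times length fell on steps best matched by totals of 100200000 to 107000000 units a library, an estimate in which a unit may be a read or a fragment. Values carry counting error, which the spread between 2 libraries of a group may understate.

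Members, roles and lists were chosen with earlier results of these data known. Genes were named by rule: the called members, the 6 members of highest FPKM, subunits of eIF2, eIF2B, eIF3, eIF4F and eEF1, paralog pairs, untested members, the 3 called genes of smallest p of each list and direction, and Rhbdf1. The other members, Apobec2, Eif4a-ps4, Krt8 and the remaining markers, Ddx3x, Dhx29 and Pabpc1, and Paip2, Dph5 and Tsfm fall outside it. Positions are from GENCODE M21 and RefSeq (GRCm38). Alternatives were pseudocounts of 0.1 and 1, no filter, a minimum mean of 5 FPKM, scaling by trimmed means, quantile normalization, robust limma, subtraction of the chromosome median, and each library left out.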

Additional observations from a re-analysis of the deposited data

How the results depend on the processing

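Both pseudocounts and robust limma changed no call among the 48 tested members, nor did the stricter filter among those it kept. Without a filter 2 members rose, Eif4h and the otherwise untested Eif5a2, and 5 fell, and after quantile normalization 5 fell. Leaving out a library gave 1 (without S20) to 3 higher members and 4 (without S17 or S20) to 11 lower ones (without S18), and fits with 1 library in a group assume that it varies like the other group. Eif2b1, Eif3b, Eif3l and Eif4g1 kept their calls in all 11 alternative fits and Eef1a1 in 10, the exception being the fit without a filter (adjusted p = 0.0975). The median log2 fold change of the members turned to 0.0223 with trimmed mean scaling and 0.0108 after subtraction of the chromosome median. By that subtraction Eif3d (0.018) and Eif3e (0.0049) changed sign, as did 8 members that were not called, Eif3h (0.059) and Eef2k, Eif2a, Eif3g, Eif3k, Eif4a3, Eif4g3 and Eif5a (each 0.0038 to 0.0226).

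Members that were not called also changed sign under the other settings. Trimmed mean scaling gave 0.043 for Eef2k, 0.094 for Eif2a, 0.077 for Eif3g, 0.052 for Eif3k, 0.037 for Eif4a3, 0.060 for Eif4g3, 0.025 for Eif5a and 0.020 for Eif6. Quantile normalization gave 0.033 for Eef2k, 0.121 for Eif2a, 0.079 for Eif3g, 0.018 for Eif3k, 0.0039 for Eif4a3 and 0.063 for Eif4g3. Leaving out a library gave -0.053 to 0.107 for Eif1, -0.501 to 0.133 for Eif1a, -0.0995 to 0.0916 for Eif2a, -0.145 to 0.195 for Eif2b3, -0.377 to 0.047 for Eif3j2, -0.019 to 0.157 for Eif3m, -0.058 to 0.038 for Eif4g3 and -0.170 to 0.019 for Eif5a. The cause was not tested, apart from the shift in the median of all genes that the scalings make.

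No paired analysis was possible because the value columns carry library tags and not the replicate numbers of the labels. With 2 libraries a group, a change that did not pass is not shown to be absent.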
